A study of Rattus norvegicus with 10 samples.

Results

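Neuregulins are growth factors with an EGF-like domain, and ErbB proteins are the receptor tyrosine kinases of the EGF receptor family. Of these, ErbB3 and ErbB4 have neuregulins as ligands. A ligand brings 2 receptor chains together, the chains phosphorylate each other, and adaptor proteins pass the signal to the Ras-MAPK and PI3K-Akt cascades. In the cortex ErbB4 is best known from inhibitory interneurons, above all the parvalbumin class, ErbB3 from cells of the oligodendrocyte lineage, and the EGF receptor from progenitors and glia. The set described here was defined by name as 7 genes, the receptor genes Egfr, Erbb2, Erbb3 and Erbb4 and the ligand genes Nrg1, Nrg2 and Nrg3. Of these, 6 were found by symbol among the 16041 genes of the table, each as 1 row, and all 6 were among the 14642 genes tested. Erbb2 was not analysed here.

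Transcripts were measured by RNA-seq in prefrontal cortex of male Sprague-Dawley rats at postnatal day 91. The 5 rats called ELS (early life stress) had been through limited nesting, in which dam and pups have little nest material, between postnatal days 2 and 9. The 5 controls carry the condition label control, and no other treatment or genotype is given for either group. The labels do not say how litters were spread over the groups, and the p-values therefore reflect only how far these samples vary. Levels are RPKM, reads scaled to the length of the gene model and the size of the library. Differences are ELS minus control after adding 0.1 RPKM and taking log2, a scale that makes the difference of low genes smaller than it is.

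Library totals ran from 18838898 to 22311136 reads. A pair of libraries stood apart over the whole table and bears on the values below. Control replicate 4 had the highest summed level of myelin and oligodendrocyte markers (2642 RPKM, against 1339 to 1692 in the other controls) and the lowest of interneuron markers (335 RPKM, against 627 to 740). ELS replicate 2 lay with the controls for a set of genes that were low in the other ELS libraries. Bulk tissue was sequenced, so fewer cells of a type and less RNA per cell cannot be told apart. Over all genes, 0 of 14642 (0%) passed an adjusted p of 0.05 by limma, while 2988 (20.4%) had an unadjusted p under 0.05, and limma-voom on reads recovered from the table also gave 0.

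The 3 receptor genes had lower means in ELS, and the ligand gene Nrg3 had a higher one. Erbb4 was at a mean of 2.22 RPKM in controls and 0.749 in ELS, Egfr at 1.99 and 1.11, Erbb3 at 4.24 and 3.21, and Nrg3 at 13.6 and 16.4. Nrg1 and Nrg2 had nearly equal means in the groups. No member passed the adjusted threshold with all 10 libraries (0 of 6, limma, Benjamini-Hochberg over all genes). At an unadjusted p under 0.05 stood 4 of the 6, of which Erbb3, Erbb4 and Egfr were lower (all genes 10.3%) and Nrg3 was higher (all genes 10.1%). In 3 of the 6 the groups did not overlap, against 5.68% of all genes, with Erbb3 and Egfr lower (all genes 2.6%) and Nrg3 higher (all genes 3.08%). The genes were chosen with results of these data known, so these counts describe them and carry no test of the set.

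**Figure D1:**
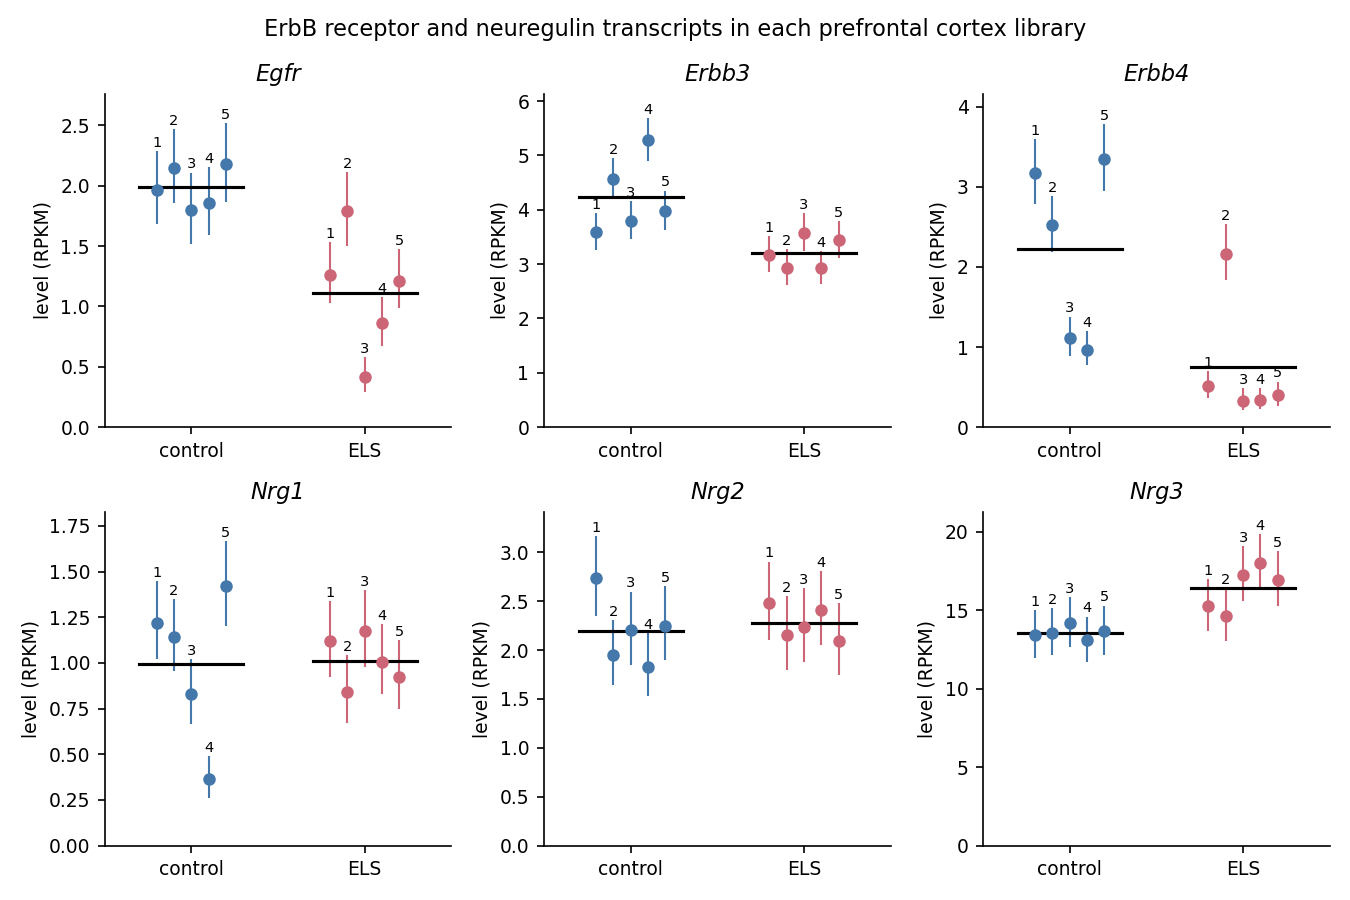
Level in RPKM (vertical axis, from 0) of 3 ErbB receptor genes and 3 neuregulin genes in each of 5 control and 5 ELS libraries, numbered by replicate, with vertical bars for the 95% Poisson counting interval and horizontal lines for group means. Erbb4 in ELS replicate 2 (2.17 RPKM) lies among the controls, whereas all 5 ELS values of Nrg3 lie above every control value.

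The sequence before the start of the gene is shown for 3 genes. These are Erbb4 and Egfr, which were lowest in the same ELS libraries, and Nrg3, which was highest in those. Each run is the 250 bases before the RefSeq gene start in build GRCr8, another build than the table's, read 5′ to 3′ on the gene's strand, at chr9:78045607-78045856 (minus strand), chr14:95378376-95378625 (plus strand) and chr16:15374108-15374357 (minus strand). Capitals mark matches to the GC box GGGCGG on either strand.
Erbb4: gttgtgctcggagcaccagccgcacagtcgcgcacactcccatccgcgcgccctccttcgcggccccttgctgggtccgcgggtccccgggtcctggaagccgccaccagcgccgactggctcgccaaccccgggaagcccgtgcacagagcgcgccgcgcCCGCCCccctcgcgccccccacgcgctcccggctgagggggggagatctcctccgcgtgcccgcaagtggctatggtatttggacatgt
Egfr: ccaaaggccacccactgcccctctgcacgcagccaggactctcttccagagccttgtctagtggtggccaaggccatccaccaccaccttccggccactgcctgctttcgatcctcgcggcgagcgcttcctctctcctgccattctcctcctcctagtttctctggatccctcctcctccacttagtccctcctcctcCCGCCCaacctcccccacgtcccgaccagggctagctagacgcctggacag
Nrg3: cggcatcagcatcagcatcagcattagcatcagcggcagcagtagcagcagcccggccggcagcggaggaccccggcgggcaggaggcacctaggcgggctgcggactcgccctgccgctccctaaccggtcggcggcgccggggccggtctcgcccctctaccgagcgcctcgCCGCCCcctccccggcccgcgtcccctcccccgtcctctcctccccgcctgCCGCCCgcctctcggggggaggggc
Erbb4 and Egfr had 1 match each and Nrg3 had 2, and 30.5% of 33469 RefSeq promoters of the same length held at least 1. A CCAAT box was not found on either strand of these 3 windows, nor were the letters TATAAA of a TATA box, and 34.0% and 12.9% of all promoters held these. The cyclic AMP response core TGACG, held by 18.2%, and the steroid receptor core AGAACA, held by 17.5%, were not found either. The shares of G and C were 73.6% for Erbb4, 63.6% for Egfr and 77.2% for Nrg3, against a median of 51.2% over all promoters. The window of Nrg2, a gene with nearly equal means in the groups, is not shown. It also had 1 GC box match, none of the other motifs and 60.4% G and C. A match is a run of letters, not a shown binding site, and the start used in this tissue may be another one.

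Erbb4 (ENSRNOG00000014248), the receptor for all neuregulins, was at 3.17, 2.52, 1.12, 0.968 and 3.35 RPKM in control replicates 1 to 5. In ELS replicates 1 to 5 it was at 0.511, 2.17, 0.328, 0.339 and 0.398 RPKM. The controls thus lay in 2 tiers, with replicates 3 and 4 low, and 4 ELS libraries were below the lowest control while ELS replicate 2 lay inside the control range. At these levels the reads were few, 82 to 250 per control library and 25 to 155 per ELS library. For the 4 ELS libraries below the controls, the closest 95% counting intervals of the groups did not overlap, but lay near each other. The upper bound was 0.701 RPKM for ELS replicate 1, and the lower bound was 0.770 RPKM for control replicate 4. The interval of ELS replicate 2, 1.84 to 2.54 RPKM, overlapped that of control replicate 2, 2.19 to 2.89 RPKM. Intervals cover counting error only. The spread within groups was far wider than counting gives, with a coefficient of variation of 50.5% in controls and 106.4% in ELS against 7.57% and 13.5% from read numbers.

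The log2 fold change of Erbb4 was -1.64 ± 0.52 (SE, 95% interval -2.79 to -0.50, limma adjusted p = 0.149), lower than that of 99.7% of all genes tested. Without ELS replicate 2 it was -2.09 with an adjusted p of 0.0289, a setting in which 444 genes (3.03%) passed. The groups then did not overlap for Erbb4, as for 13.9% of all genes tested, while 6.56% of all genes tested were without overlap and lower in ELS. Without both ELS replicate 2 and control replicate 4 it was -2.32 with an adjusted p of 0.0104, where 1116 genes (7.62%) passed. These libraries held the highest ELS and the lowest control value of Erbb4, so leaving them out widens its difference by itself. With limma-voom and sample weights, Erbb4, Erbb3, Egfr and Nrg3 passed (4 of 6, all genes 6.37%). When each library was left out in turn, the adjusted p ran from 0.0289 to 0.313 and the sign did not turn. Among the controls, summed interneuron markers were also lowest in replicates 3 and 4 and highest in replicate 5, as Erbb4 was. The sums in control replicates 1 to 5 were 649, 691, 627, 335 and 740 RPKM. Replicate 3 was thus close to replicates 1 and 2, without the 2 tiers of Erbb4. Between the groups, 11 of 15 interneuron markers tested had higher and 4 lower means in ELS, where 49.4% of all genes were lower. At an unadjusted p under 0.05 stood 2 in each direction (all genes 10.3% lower and 10.1% higher). The median difference of the 15 markers was 0.18 on the log2 scale, or 0.0420 without control replicate 4. Their levels added up to 335 to 740 RPKM in controls and 693 to 767 after ELS. The neuropeptide genes Cck and Sst were the highest of the list, at 195.6 ± 63.7 and 128.4 ± 38.5 RPKM in controls and 237.8 ± 6.12 and 147.8 ± 13.3 in ELS. The 4 markers at an unadjusted p under 0.05, chosen after their values were seen, were Calb2 (7.60 RPKM in controls and 4.89 after ELS) and Htr3a (2.62 and 2.23), which were lower, and Kcnc1 (19.8 and 23.3) and Pvalb (53.6 and 68.8), which were higher. Pvalb encodes parvalbumin. The part of interneuron transcripts in the Erbb4 values was not tested.

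Egfr (ENSRNOG00000004332), the founding receptor of the family, was at 1.97, 2.15, 1.79, 1.85 and 2.18 RPKM in control replicates 1 to 5, and at 1.26, 1.79, 0.419, 0.859 and 1.21 in the ELS replicates in the same order. ELS replicate 3 was lowest by a wide margin, at 35 reads, and ELS replicate 2 was highest of its group. The groups did not overlap, but the highest ELS value, 1.787 RPKM, was just under the lowest control value, 1.794, and their counting intervals overlapped. The controls were tight, with a coefficient of variation of 8.61% beside 7.62% from read numbers, while ELS varied by 45.9% beside 10.5%.

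The log2 fold change of Egfr was -0.91 ± 0.29 (SE, 95% interval -1.55 to -0.27, limma adjusted p = 0.151). Without ELS replicate 2 it was -1.10 (adjusted p = 0.0577). Without ELS replicate 2 and control replicate 4 it was -1.12 and passed (adjusted p = 0.0437), as did 7.62% of all genes. ELS replicate 2 held the highest ELS value of Egfr, so leaving it out widens the difference by itself. Without ELS replicate 3 the log2 fold change was -0.63 (adjusted p = 0.260). All 14 astrocyte markers tested were at lower mean levels after ELS, against 49.4% of all genes. Their median log2 difference was -0.19, with a summed level of 1684 to 1894 RPKM in controls and 1295 to 1548 in ELS. At an unadjusted p under 0.05, 9 of them were lower (all genes 10.3%). The drop in the sum rests in large part on 1 marker, Slc1a2, named after its values were seen. Its mean fell from 214.9 RPKM in the control group to 64.9 in the ELS group. In 4 ELS libraries it lay below every control, while its highest ELS value was 231.5 RPKM. Its log2 difference was -2.59, and the next largest of the list, that of Gfap, was -0.70. The part of astrocyte transcripts in the Egfr difference was not tested.

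Erbb3 (ENSRNOG00000004964), a receptor with a weak kinase that works through its partner chain, was at 3.59, 4.57, 3.80, 5.29 and 3.97 RPKM in control replicates 1 to 5. It was at 3.17, 2.93, 3.58, 2.92 and 3.44 in ELS replicates 1 to 5. Here ELS replicate 2 was not set apart from its group, unlike for Erbb4 and Egfr, and control replicate 4 was the highest of all libraries. The groups did not overlap, though only barely, with 3.587 RPKM in the lowest control and 3.580 in the highest ELS library.

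The log2 fold change of Erbb3 was -0.38 ± 0.11 (SE, 95% interval -0.63 to -0.13, limma adjusted p = 0.137). Leaving out control replicate 4 gave -0.30 (adjusted p = 0.125). It ran from -0.44 to -0.30 when each library was left out. The markers of mature oligodendrocytes and myelin moved the same way, with 19 of 19 tested lower on average (all genes 49.4%). Their median was -0.45, or -0.32 without control replicate 4. At an unadjusted p under 0.05, 18 were lower (all genes 10.3%). The summed level of the list was 1339 to 2642 RPKM in controls and 1026 to 1320 in ELS. Mbp, a protein of compact myelin, averaged 656.8 ± 236 RPKM in the control group and 388.3 ± 46.2 in the ELS group. Of 8 precursor markers tested, 8 were lower on average (median -0.33). How much of the Erbb3 difference goes with the amount of oligodendrocyte RNA was not tested.

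Nrg3 (ENSRNOG00000033894), a neuregulin of the nervous system that binds ErbB4, was at 13.4, 13.6, 14.2, 13.1 and 13.6 RPKM in control replicates 1 to 5. In ELS replicates 1 to 5 it was at 15.3, 14.6, 17.3, 18.02 and 16.9 RPKM. Every ELS library was above every control library, with ELS replicates 1 and 2 closest to them. The 95% counting intervals of ELS replicate 2 (13.0 to 16.4 RPKM) and control replicate 3 (12.6 to 15.8 RPKM) overlapped. The 298 to 420 reads per library gave a counting error of 4.88% to 5.79%, and the controls varied by 2.93%, no more than counting gives. The log2 fold change was 0.27 ± 0.06 (SE, 95% interval 0.14 to 0.40, limma adjusted p = 0.133), with the lowest p of the 6 genes, rank 97 of 14642. Without ELS replicate 2 it was 0.31 and passed (limma adjusted p = 0.0268), as did 3.03% of all genes. That library held the lowest ELS value of Nrg3, so leaving it out widens the difference by itself. The adjusted p ran from 0.0268 to 0.294 when each library was left out. Of 16 excitatory neuron marker rows, 11 were higher on average and 5 lower (all genes 49.4% lower), with a median log2 difference of 0.13. Their summed level was 1215 to 1587 RPKM in controls and 1357 to 1546 in ELS. Control replicate 4 had the highest sum but the lowest mean log2 level of these markers, at -0.42 from their mean over all libraries. At an unadjusted p under 0.05 (limma), 3 were higher (all genes 10.1%) and 1 was lower (all genes 10.3%). In 3 rows all ELS values were above all control values (all genes 3.08%). The part of neuronal transcripts in the Nrg3 difference was not tested.

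Nrg1 (ENSRNOG00000010392), the most studied neuregulin and a driver of Schwann cell myelination, was the lowest ligand. It was at 1.22, 1.14, 0.829, 0.364 and 1.42 RPKM in control replicates 1 to 5 and at 1.12, 0.842, 1.17, 1.01 and 0.924 in the ELS replicates. The groups overlapped, and control replicate 4, with 43 reads, was lowest of all. The log2 fold change was 0.13 ± 0.29 (SE, limma adjusted p = 0.834). Its sign turned when control replicate 4 was left out, to -0.16 (adjusted p = 0.624). The 95% interval with all libraries, -0.52 to 0.77, leaves room for differences in either direction.

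Nrg2 (ENSRNOG00000019093), a further ligand of ErbB3 and ErbB4, was at 2.73, 1.95, 2.20, 1.83 and 2.25 RPKM in control replicates 1 to 5, and at 2.48, 2.15, 2.23, 2.41 and 2.09 in the ELS replicates. All 5 ELS values lay inside the control range. The log2 fold change was 0.06 ± 0.11 (SE, 95% interval -0.19 to 0.31, limma adjusted p = 0.795).

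**Figure D2:**
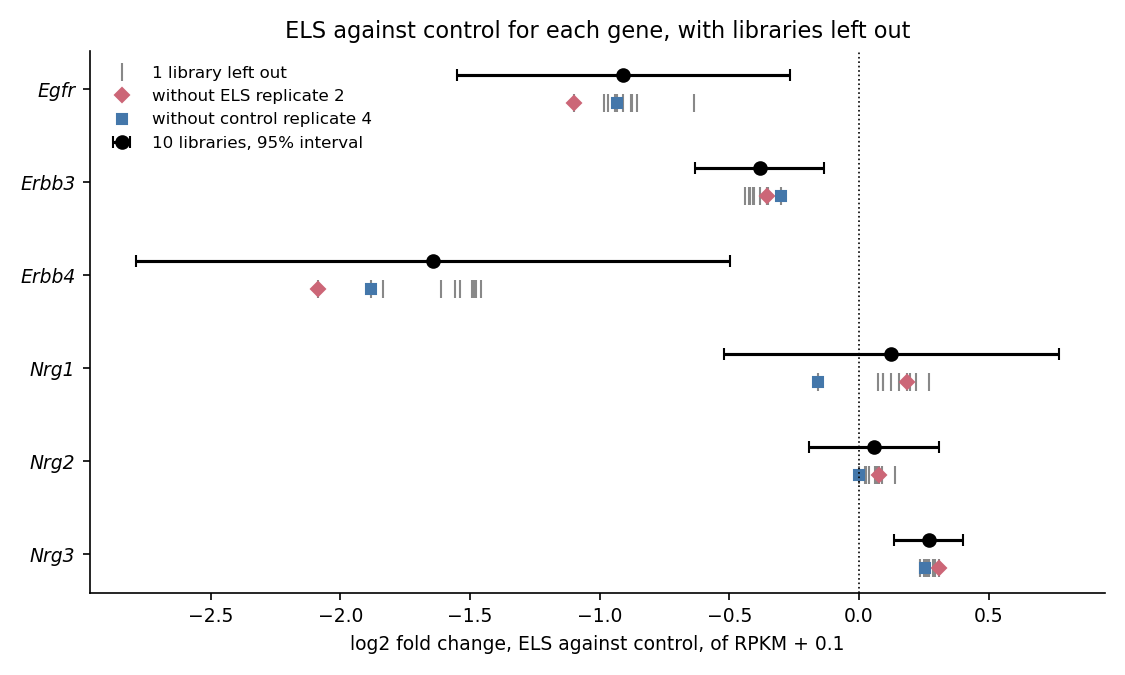
Log2 fold change of RPKM + 0.1, ELS against control (horizontal axis), for each of the 6 genes, with the 95% interval over 10 libraries in black and, below it, the estimates with 1 library left out (ticks), without ELS replicate 2 (diamonds) and without control replicate 4 (squares). Erbb4 moves most between settings, from -2.09 to -1.46, and Nrg1 crosses 0 without control replicate 4.

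The order of levels per length differed between the groups below the top 2 genes. Nrg3 led and Erbb3 came next in each of the 10 libraries, with no overlap of their ranges. In controls Erbb4, Nrg2 and Egfr followed with overlapping ranges, and Nrg1 was lowest, below Egfr in 5 of 5 libraries. In ELS Nrg2 was above Egfr in 5 of 5 libraries, and Egfr, Nrg1 and Erbb4 came last with ranges that overlapped. These levels rest on the gene models of the table, which were 1110 bases long for Nrg3 and 3185 to 5934 for the others.

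Within a library, Nrg3 made up 77.2% to 85.6% of the summed level of the 3 ligand genes in controls and 80.9% to 84.9% in ELS. The sum of the 3 receptor genes was 6.71 to 9.50 RPKM in controls and 4.12 to 6.89 in ELS. Of that sum Erbb3 took 50.8% ± 10.2 in controls and 65.7% ± 14.7 in ELS, and Erbb4 took 25.5% ± 10.9 and 13.1% ± 10.3 (SD, n = 5 each). The Erbb4 share was 31.5% at its highest in ELS, in replicate 2. These shares are given as a description, without a test.

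The genes whose log2 levels followed each member most closely over the 10 libraries were taken by Pearson's r among 13227 others with a mean of at least 1 RPKM. The libraries share depth differences and the group contrast, so r describes likeness only. Erbb4 was followed by Bmpr2, a receptor for bone morphogenetic proteins (r = 0.995), Csrnp3 (0.993) and Ubn2 (0.992). Bmpr2 had the same 2 tiers of controls, 9.94, 9.34 and 11.3 RPKM in replicates 1, 2 and 5 and 5.17 and 5.31 in replicates 3 and 4, and in ELS it was at 9.38 in replicate 2 and 2.51 to 3.23 in the others. Egfr was followed by Tmem170b (0.994), Dnajb14 (0.990), a co-chaperone gene, and Btbd7 (0.989), each with its lowest value in ELS replicate 3. Erbb4 and Egfr had the same order of ELS libraries, with replicate 2 highest, then 1, 5, 4 and 3, and control replicates 3 and 4 were the lowest controls for both.

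Erbb3 was followed by Klk6 (r = 0.983), a protease gene of oligodendrocytes, Gprc5b (0.964) and AABR07005549.1 (0.957). Klk6 ranged over 6.04 to 10.7 RPKM in the control group and 4.16 to 5.57 in the ELS group, with control replicate 4 highest, as for Erbb3. Nrg3 was followed by Ap3d1 (0.978), a vesicle adaptor subunit, Tnpo2 (0.970), a nuclear import receptor, and Atp6v1e1 (0.962), a proton pump subunit. Nrg1 was followed by Phyhipl (0.972), Zfp385a (0.969) and Arl4d (0.956), all lowest in control replicate 4 like Nrg1. No gene reached this likeness with Nrg2, whose closest were Rnf220 (0.873), Otof (0.861) and Adgrl3 (0.855). Without control replicate 4 the 3 closest genes were all others for Nrg1 (led by Pdgfd, 0.924), Nrg2 (led by AABR07043167.3, 0.889) and Nrg3 (led by RGD1562136, 0.981). For Erbb3 and Erbb4, Klk6 and Bmpr2 stayed closest and the next 2 were others, and for Egfr the 3 were the same.

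**Figure D3:**
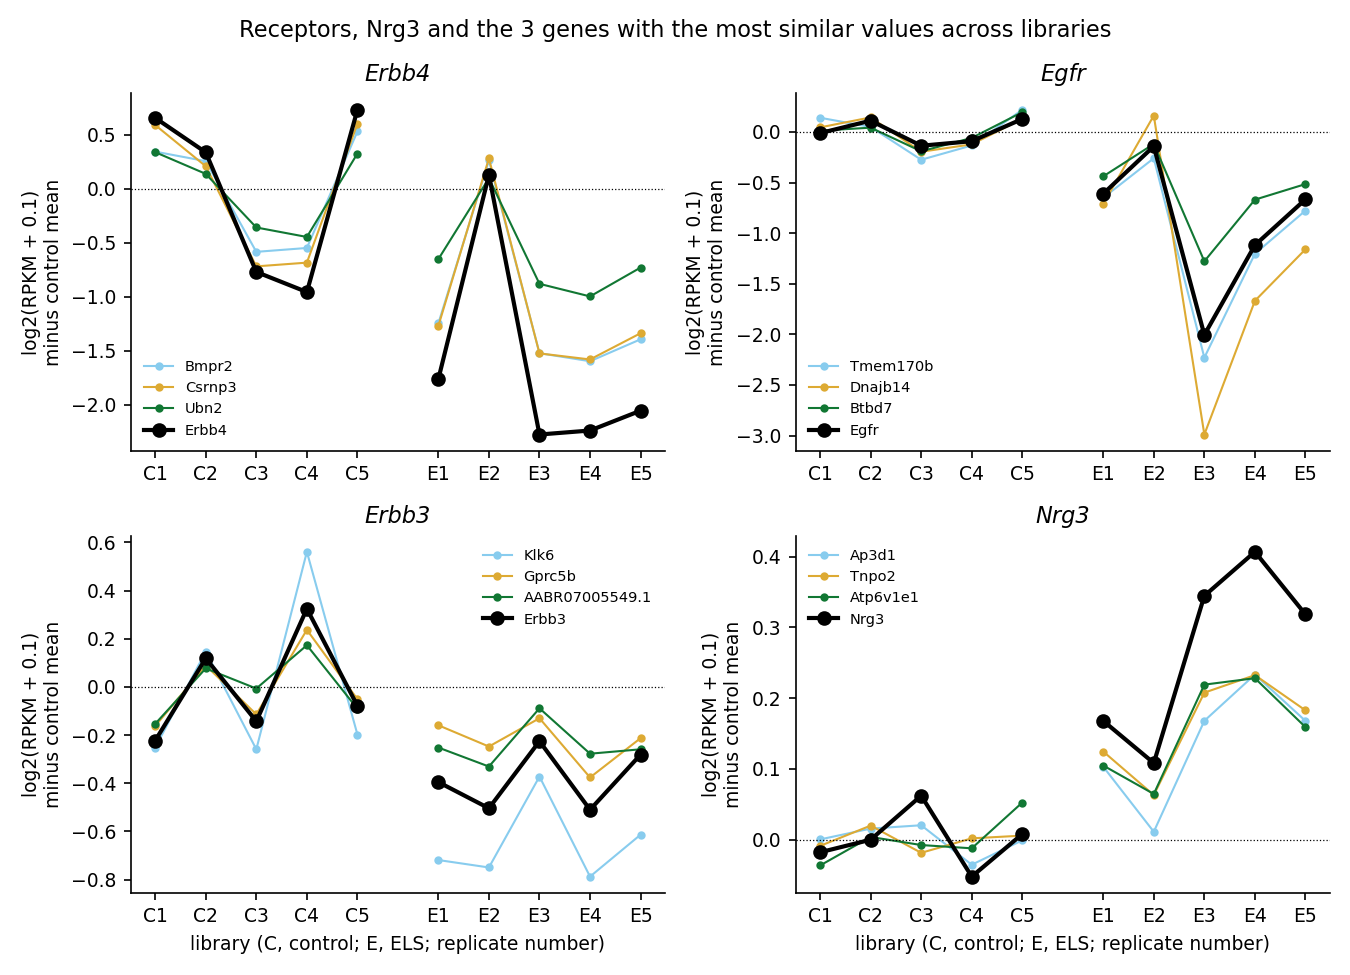
Log2(RPKM + 0.1) minus the control mean (vertical axis) in the 10 libraries (horizontal axis, C for control and E for ELS) for Erbb4, Egfr, Erbb3 and Nrg3 in black and the 3 genes most like each in colour. ELS replicate 2 returns to the control level for Erbb4 and its 3 genes, and ELS replicate 3 is lowest for Egfr and its 3 genes.

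The wider pathway was read from 7 lists of ligands, proteases, adaptors, kinases, brakes and scaffolds, of whose 98 genes 89 rows were tested, with Grb2 present as 2 rows. None passed the adjusted threshold (limma), and 21 (23.6%) had an unadjusted p under 0.05, near the 20.4% of all genes, with 9 lower and 12 higher in ELS. Their median log2 fold change was 0.04, against 0.00371 over all genes. In 4 of the 89 all ELS values were below all control values (all genes 2.6%), and in 0 above (all genes 3.08%).

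Of the other ErbB ligands, 3 were tested. Control libraries held Tgfa, a ligand of the EGF receptor, at 2.94 ± 0.417 RPKM and ELS libraries at 2.11 ± 0.229, without overlap. The log2 difference was -0.46 ± 0.12 (SE, adjusted p = 0.133 by limma). Hbegf, a ligand of both the EGF receptor and ErbB4, had 1.87 ± 0.324 and 1.63 ± 0.370 RPKM, with overlap. Of 10 proteases that release neuregulins or act on their fragments, 1 had an unadjusted p under 0.05 (all genes 20.4%). It was Bace1, which cleaves Nrg1, at 30.9 ± 1.77 RPKM in controls and 33.3 ± 1.01 in ELS. Adam17, a sheddase of EGF family ligands, was at 4.30 ± 0.494 and 3.74 ± 0.427 RPKM.

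In the adaptor and Ras-MAPK list, 2 of 23 rows were lower and 5 higher at an unadjusted p under 0.05, with a median of 0.04. Over all genes 10.3% were lower and 10.1% higher at that limit, which applies to the next lists too. Gab1, a docking protein for PI3K and Shp2, averaged 8.10 ± 0.838 RPKM in the control group and 6.10 ± 0.787 in the ELS group, without overlap. The kinase gene Braf was at 10.04 ± 0.880 and 6.63 ± 2.28 RPKM (log2 difference -0.65 ± 0.20, SE, adjusted p = 0.142 by limma). In the PI3K-Akt list 3 of 15 were higher and 0 lower, with a median of 0.03, among them the regulatory subunit Pik3r2 at 42.5 ± 1.98 and 46.9 ± 1.57 RPKM and the transcription factor Foxo3 at 9.38 ± 1.61 and 11.6 ± 0.687. Of 13 other effectors 1 was lower, Prkca, a protein kinase C gene, at 23.8 ± 5.36 and 13.2 ± 4.71 RPKM, and 1 higher, Pak1, a kinase of the actin cytoskeleton, at 74.4 ± 14.3 and 96.3 ± 7.54.

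Among 14 genes of receptor turnover and braking, 3 were lower (all genes 10.3%) and 1 higher (all genes 10.1%) at an unadjusted p under 0.05. Their median was -0.04. Cbl, a ubiquitin ligase that marks the activated EGF receptor for degradation, was at 6.06, 6.499, 3.66, 3.96 and 5.85 RPKM in control replicates 1 to 5 and at 1.21, 6.26, 0.180, 0.469 and 1.09 in the ELS replicates. Its ELS libraries had the order of those of Erbb4, and its control replicates 3 and 4 were also low, while the order of controls differed. It had ELS replicate 2 at the control level and 4 ELS libraries below every control. Its log2 fold change was -2.24 ± 0.68 (SE, limma adjusted p = 0.141). Socs5, a suppressor of cytokine and EGF receptor signalling, was at 18.5 ± 1.16 and 20.8 ± 0.744 RPKM.

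Of 11 scaffold and partner genes 2 were lower (all genes 10.3%) and 1 higher (all genes 10.1%) at an unadjusted p under 0.05. The 2 lower ones did not overlap between the groups (all genes 2.6%). Erbin, a PDZ scaffold that binds ErbB2, averaged 9.84 ± 0.395 RPKM in controls and 7.54 ± 0.711 after ELS, with ELS replicate 2 the highest of its group at 8.64. Its log2 difference was -0.38 ± 0.07 (SE, adjusted p = 0.133 by limma). Yap1, a coactivator that binds the intracellular part of ErbB4, was at 4.74 ± 0.270 and 3.74 ± 0.162 RPKM. Without ELS replicate 2 (all genes 3.03%), 5 pathway genes passed as lower, Braf, Cbl, Erbin, Gab1 and Yap1, and 1 as higher, the postsynaptic scaffold gene Dlg4, which is named outside the rule after its values were seen. That balance was not kept elsewhere. Without control replicate 4 as well, 5 were lower and 5 higher (all genes 7.62%). By limma-voom with sample weights, 6 were lower and 5 higher (all genes 6.37%). Over all genes, 308 passed as lower and 136 as higher without ELS replicate 2. Without both libraries these counts were 603 and 513, and by limma-voom with sample weights 596 and 337.

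**Figure D4:**
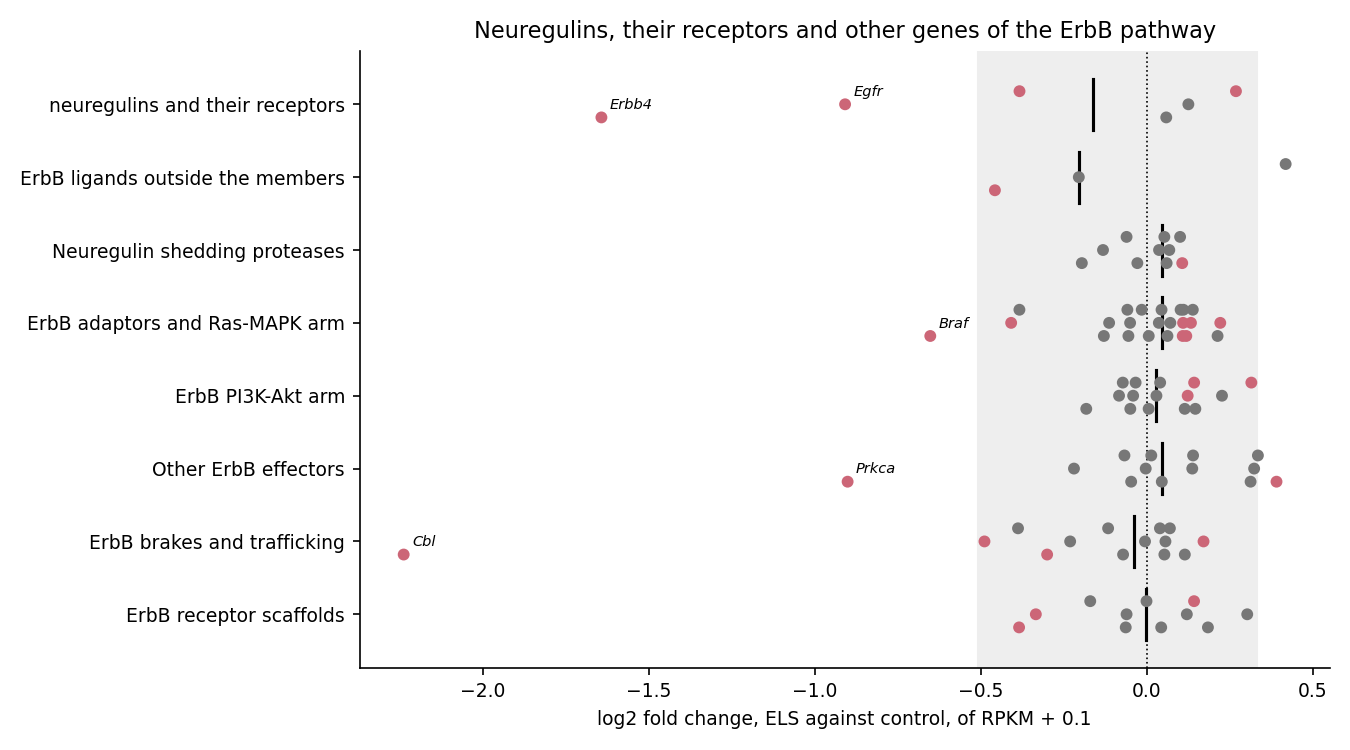
Log2 fold change of RPKM + 0.1, ELS against control (horizontal axis). Points are the neuregulin and ErbB receptor genes and the genes in 7 pathway lists, 1 per gene row. They are coloured where the unadjusted p was under 0.05 (limma). Black bars are list medians, and the grey band runs from the 5th to the 95th percentile of all genes (-0.51 to 0.33). Cbl, Erbb4, Egfr, Prkca and Braf lie below the band, and the medians lie near 0 except in the top rows, the set itself and the 3 other ligands.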

How the data were processed

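Values were taken from 1 deposited table of RPKM for 10 libraries. Per the labels' protocols the libraries were made from total RNA with a stranded poly(A) mRNA kit. STAR, featureCounts and rn6 are named, without versions, per the submitters' processing notes. The annotation release, strand setting and gene filter are not stated there, so reads shared with overlapping or antisense genes cannot be told apart. Whether the deposited RPKM values count reads or fragments is not stated. The steps between values gave back whole reads, model lengths and the size of each library for 16015 genes, 100% of those above 0, within 0.002 reads. The library totals are the authors', and listed genes held 71.1% to 73.7% of them. Columns of other samples numbered 0.

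After adding 0.1 RPKM and taking log2, the 14642 genes at 0.5 RPKM or more in 5 or more libraries were tested. The difference between ELS and control was fitted in limma 3.58.1 under R 4.3.3, using robust moderation and a trend of variance on level. Tests were two-sided, p-values were adjusted by Benjamini-Hochberg across these genes, and the threshold was 0.05. The script was tested on simulated data.

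The genes, the 7 pathway lists and the 12 cell type lists were chosen with earlier results of these data known. Named beside the members are the 2 genes of lowest p per pathway list with a mean of at least 1 RPKM, any list gene past the adjusted threshold, the 3 genes most like each member by Pearson's r, and the 2 highest markers of a cell type list. A gene that this rule names is not reported here. Alternatives were the pseudocount, the filter, the scaling, limma-voom with and without sample weights, plain limma, a replicate block and libraries left out. Sequences are from RefSeq, build GRCr8, which held a promoter for 4 of the 6 members. No coordinates of the table's genes are given.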

Additional observations from a re-analysis of the deposited data

Results flagged for a closer look

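Erbb4 in ELS replicate 2 stood far from the rest of its group, at 2.17 RPKM against 0.511 in the next highest ELS library. The gap was 0.901 of the group's whole range, above Dixon's 95% critical value for 5 samples, and 155 reads lay behind it against 25 to 38 in the other ELS libraries. About 1 in 20 groups passes that limit by chance. Without that library the adjusted p of Erbb4 was 0.0289 (limma), with all libraries 0.149. The cause was not tested.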

How the results depend on the processing

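Egfr, Erbb3, Erbb4 and Nrg3 kept their direction and an unadjusted p under 0.05 in all 21 alternative settings. The count of members past the adjusted threshold was 0 with all libraries and 0 to 2 when each library was left out, the 2 (Erbb4 and Nrg3) without ELS replicate 2. It was 3 without ELS replicate 2 and control replicate 4, where Egfr joined them, and 4 by limma-voom with sample weights (all genes 6.37%), which gave control replicate 4 a weight of 0.170. Over all genes, 0 to 444 passed when each library was left out (444 without ELS replicate 2, 1 without ELS replicate 5), while 1116 passed without both named libraries and 933 by limma-voom with sample weights. The 21 pathway genes at an unadjusted p under 0.05 became 13 to 21 when each library was left out, 13 without ELS replicate 4. They became 28 without both named libraries and 26 by limma-voom with sample weights. The alternatives of this count were added after the data were seen. The share of all genes at that limit was taken only with all 10 libraries by limma (20.4%). The 3 members without overlap became 4 without ELS replicate 2, which adds Erbb4 (all genes 13.9%). Nrg1 turned sign in 3 settings, to -0.16 without control replicate 4 (range 1 library left out, -0.16 to 0.27), to -0.0982 without both libraries and to -0.14 by limma-voom with sample weights. Nrg2 turned to -0.0239 by that last method. The cause was not tested. With a pseudocount of 1, Erbb4 was at -0.90 and Egfr at -0.54, since their levels are near that value. With the replicate number as a block, 0 members passed the adjusted threshold and 4 had an unadjusted p under 0.05. Equal numbers did not deviate together (correlations of -0.0817 to 0.0658), so they were not taken as pairs. At 25 to 38 reads in 4 ELS libraries, counting error alone is 16.2% to 20.0% for Erbb4.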

Other observations

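Other cell types in the tissue were read from further marker lists, with medians of log2 fold changes between ELS and control. Microglia markers had lower means in 12 of 12 genes tested (median -0.19), and blood cell transcripts in 4 of 4 rows, of which Hba-a2 takes 2 (median -1.07). Over all genes 49.4% were lower. Endothelial and pericyte markers had a median of -0.0339 and smooth muscle and meningeal markers one of -0.0823. Striatal projection neuron markers had a median of -0.0529, and neuroblast markers one of -0.53 over 9 genes, 8 of them lower. Choroid plexus markers had 2 genes tested, with a median of 0.0166, and a summed level of 33.1 RPKM in control replicate 4 against 2.63 to 5.01 in the other 9 libraries. Most of that 33.1 RPKM was Ttr (31.1 RPKM), a marker outside the 2 tested. The 2 tested markers were on average lowest in control replicate 4, at -0.99 on the log2 scale from their mean over all libraries. Without control replicate 4 the medians were -0.12 for endothelial, -0.27 for smooth muscle, -0.32 for striatal, -0.69 for neuroblast, -0.24 for microglia and -1.07 for blood markers, and that of choroid plexus turned to -0.23. The part of these transcripts in the values of the neuregulin and ErbB receptor genes was not tested.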
